A study of Mus musculus with 6 samples.

Results

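The p53 and GADD45 damage response was followed through 10 genes (Trp53, Atm, Mdm2, Ccng1, Zmat3, Cdkn1a, Bbc3, Gadd45a, Gadd45b and Gadd45g) in the accessible chromatin of mouse long-term haematopoietic stem cells (LT-HSCs). Accessibility was read by ATAC-seq, in which a transposase cuts open DNA and leaves sequencing adapters there. A peak is a stretch of 700 bp on the mm10 genome in which cuts pile up. A peak was counted as belonging to one of these genes when its midpoint lay within 50 kb of an end of the gene and no other protein-coding gene had a nearer end. In this way 29 of 42632 peaks were assigned, to 8 of the 10 genes. They comprised 9 gene-end peaks, with the midpoint at most 1 kb from a gene end, and 20 peaks farther out, called distal. The gene ends were those of RefSeq on GRCm38.p6, the assembly known as mm10.

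Unconfined LT-HSCs (3 libraries) were kept for 16 h in suspension. Confined LT-HSCs (3 libraries) had 13 h in suspension and 0.5 h of attachment on fibronectin-coated glass, then 2 h under a coverslip held 5 µm above them, and were released with a dissociation reagent before ATAC-seq. The C57BL/6 mice that gave the marrow were 10 to 16 weeks old. Cells were sorted without lineage markers, as Sca1+ and cKit+, CD34- and Flt3-, and were cultured at 3% O2 and 5% CO2. The labels mention no transgene or deletion. Attachment and release were done only with confinement, so these steps and the squeezing itself cannot be told apart.

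The transcription factor p53, encoded by Trp53, is held at a low level by the ubiquitin ligase Mdm2 and is released when kinases such as Atm signal DNA breaks. It then turns on genes that stop the cell cycle, trigger death or feed back on p53 itself. In blood stem cells p53 is known for its part in quiescence and in the removal of damaged cells. The GADD45 proteins are small stress-induced proteins that bind partners such as PCNA, CDK1 and the kinase MTK1, and Gadd45a is a classical p53 target.

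Depth limits what can be read from these genes. Total peak counts ranged from 304898 to 1229478 in the unconfined and from 128257 to 340922 in the confined libraries. Summed over the 29 peaks, unconfined libraries 1 to 3 had 257, 893 and 740 counts, and confined libraries 1 to 3 had 230, 123 and 73. At most 3 counts stood at 22 of the 29 peaks in confined library 3, at 10 in confined library 2 and at 4 in confined library 1. The same held at 6 peaks in unconfined library 1 and at 0 in unconfined libraries 2 and 3. A floor of 3 counts equals 23.4 CPM (counts scaled to a total of 1000000 over all peaks) in confined library 3 and 2.44 CPM in unconfined library 2. Across all peaks, log2 CPM of the unconfined libraries correlated at r = 0.676 to 0.824 with each other. Those of confined library 1 correlated with them at 0.418 to 0.524, and those of confined libraries 2 and 3 at -0.0270 to 0.05. The confined libraries correlated with each other at 0.0194 to 0.0856. Confined libraries 2 and 3 thus showed almost none of the peak pattern of the other 4, nor a pattern in common, and every confined mean below averages libraries that differ in this way. The median count per peak was 5 in confined library 2, the same as in unconfined library 1. Of 10 stem and progenitor cell genes, 5 had a gene-end peak, with a summed level of 184 to 221 CPM unconfined and 187 to 208 CPM confined. Those without one were Gata2, Ly6a, Mecom, Slamf1 and Tek. None of 6 T and NK cell genes had a gene-end peak, but 1 of them had 8 peaks farther out, of which 5 held enough counts to be tested. Gene-end peaks were assigned to 2 of 5 B cell, 2 of 7 myeloid, 4 of 6 erythroid and megakaryocyte genes and to both Cd34 and Flt3. The summed level was 23.0 to 41.5 CPM unconfined and 55.7 to 63.2 CPM confined for the B cell genes, and 16.4 to 30.1 against 26.4 to 62.4 CPM for the myeloid genes. For erythroid and megakaryocyte genes it was 111 to 130 against 93.9 to 133 CPM. For Cd34 and Flt3, whose products were sorted against, it was 35.6 to 65.6 against 39.0 to 64.5 CPM. Their part in the results was not tested. In bulk libraries, a site open in fewer cells and a site less open in each cell cannot be told apart.

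RefSeq promoter windows, from 250 bases before to 50 after a transcription start, were matched for 9 of the 10 genes, with 12 windows in all, and 9 of these windows overlapped one of the 29 peaks. The bases before the start are shown for the 3 genes whose gene-end peaks held the most counts, and for both starts of Cdkn1a, which were chosen after the values were seen. The sequences are RefSeq's on GRCm38.p6. Each is read 5′ to 3′ on the gene's strand, with capitals for a match to CCAAT, to GGGCGG or to the p53 response element on either strand.
Gadd45a, chr6:67037408-67037657, minus strand: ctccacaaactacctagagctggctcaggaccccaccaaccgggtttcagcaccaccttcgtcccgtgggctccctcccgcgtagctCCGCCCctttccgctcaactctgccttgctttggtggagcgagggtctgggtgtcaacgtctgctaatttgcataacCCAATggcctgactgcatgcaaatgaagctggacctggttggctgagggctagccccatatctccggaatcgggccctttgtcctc
Ccng1, chr11:40755287-40755536, minus strand: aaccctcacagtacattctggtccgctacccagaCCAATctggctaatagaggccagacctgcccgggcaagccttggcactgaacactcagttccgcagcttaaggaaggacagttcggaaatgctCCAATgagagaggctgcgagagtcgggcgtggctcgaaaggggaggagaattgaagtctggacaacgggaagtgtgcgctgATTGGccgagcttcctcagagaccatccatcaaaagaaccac
Gadd45g, chr13:51846425-51846674, plus strand: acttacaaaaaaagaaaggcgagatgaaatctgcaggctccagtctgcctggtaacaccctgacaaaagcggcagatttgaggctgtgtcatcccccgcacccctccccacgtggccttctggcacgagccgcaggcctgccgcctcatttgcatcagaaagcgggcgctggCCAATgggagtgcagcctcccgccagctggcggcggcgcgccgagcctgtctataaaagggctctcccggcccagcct
Cdkn1a upstream start, chr17:29090729-29090978, plus strand: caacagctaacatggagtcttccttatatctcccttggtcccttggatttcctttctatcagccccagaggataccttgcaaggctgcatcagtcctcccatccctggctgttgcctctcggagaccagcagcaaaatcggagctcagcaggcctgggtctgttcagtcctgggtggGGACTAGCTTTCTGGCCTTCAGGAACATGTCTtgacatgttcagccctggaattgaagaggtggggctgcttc
Cdkn1a internal start, chr17:29093519-29093768, plus strand: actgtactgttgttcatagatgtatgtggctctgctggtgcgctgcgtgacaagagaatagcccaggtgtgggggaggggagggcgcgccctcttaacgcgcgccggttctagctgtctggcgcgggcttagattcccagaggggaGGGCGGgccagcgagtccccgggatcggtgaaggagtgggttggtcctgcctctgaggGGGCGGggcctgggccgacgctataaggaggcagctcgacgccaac

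A match to the p53 response element, which is a pair of decamers, was found in 1 of the 12 windows, that of the upstream Cdkn1a start. It began 73 bases before the start and was 32 bases long, with 12 bases between the decamers. Such a match occurred in 24 of all 32851 windows (0.0731%). No peak overlapped this window. The window of the internal Cdkn1a start, 2 matches to GGGCGG and no p53 element within it, lay under a peak. CCAAT matched in 8 of the 12 windows (37.4% of all windows), with 4 matches in that of Ccng1, 1 of them after the start, and 1 each in those of Gadd45a and Gadd45g. GGGCGG matched in 8 of 12 (35.7% of all), CCGGAAG in 2 of 12 (8.86%), and TGACGTCA and TGANTCA in none (1.79% and 7.81%). Both strands were searched, and a match is a description of the letters and not a binding site.

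At the gene ends, the mean CPM was lower in confined cells at 7 of 9 peaks, and the start of Gadd45a was the most open of them. Gene-end peaks as a whole held 38.6% to 43.1% of all counts unconfined and 23.9% to 31.0% confined, so lower means there are not particular to these genes. All 3 confined libraries lay below all 3 unconfined ones at 5 of the 9 gene-end peaks (31.4% of all gene-end peaks did so) and above them at none (6.33% of all). The 5 peaks lay at Trp53, Ccng1 and Gadd45g and, with 2 of them, at Gadd45a.

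**Figure D1:**
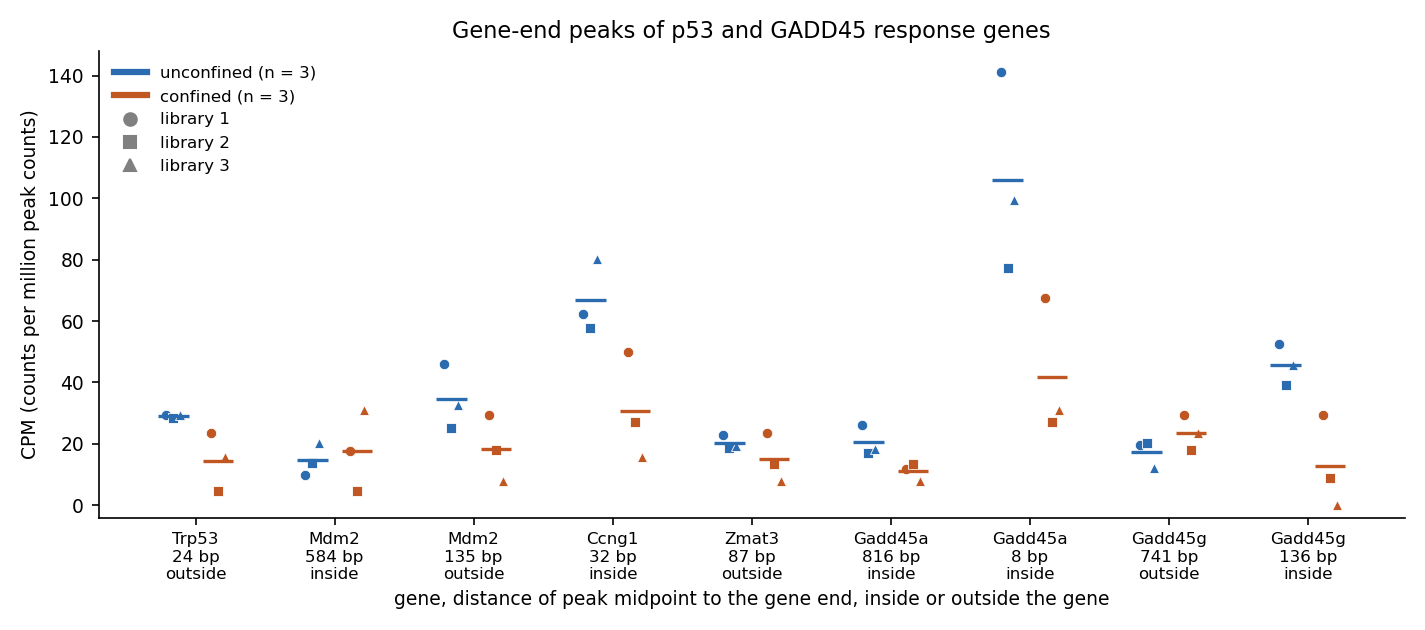
CPM of the 9 gene-end peaks in each of 3 unconfined (blue) and 3 confined (orange) libraries. Symbols mark library 1, 2 or 3, horizontal bars the group means, and the axis labels give the distance of the peak midpoint from the gene end. The Gadd45a start peak was highest in both groups, with means of 106 and 41.9 CPM.

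Gadd45a encodes a stress sensor that holds cells at the G2 to M transition. Its start peak (chromosome 6, 67037049 to 67037748, midpoint 8 bp inside the gene) had 43, 95 and 98 counts in the order of unconfined libraries 1 to 3, against 23, 6 and 4 for confined libraries 1 to 3. This made 141, 77.3 and 99.6 CPM unconfined and 67.5, 27.1 and 31.2 CPM confined, in the same order, which is used throughout. The groups did not overlap, and confined library 1 lay closest to the unconfined ones. Among all gene-end peaks it ranked at percentiles 98.3, 93.9 and 94.2 in the unconfined libraries, 97.5 in confined library 1, and 72.4 and 76.4 in confined libraries 2 and 3. A second Gadd45a peak, within the gene 816 bp from that start (67036241 to 67036940), was lower. It had 26.2, 17.1 and 18.3 CPM unconfined and 11.7, 13.6 and 7.80 CPM confined, without overlap.

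Gadd45g encodes the family member known from cytokine and differentiation signals. Its peak over the start (chromosome 13, 51846462 to 51847161, midpoint 136 bp inside the gene) had 16, 48 and 45 counts unconfined against 10, 2 and 0 confined. The levels were 52.5, 39.0 and 45.7 CPM against 29.3, 9.03 and 0 CPM. Among gene-end peaks it ranked at percentiles 79.0, 71.3 and 72.1 unconfined, and 63.5, 15.1 and 5.32 confined. With 0 counts in confined library 3, a level of up to 23.4 CPM there is allowed by counting error alone. A Gadd45g peak 741 bp outside the start (51845584 to 51846283) showed no such order, with 17.4 ± 4.52 CPM unconfined and 23.6 ± 5.64 CPM confined (SD, n = 3 each).

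Ccng1 encodes cyclin G1, a p53 target that acts back on Mdm2. Its start peak (chromosome 11, 40754927 to 40755626) had 19, 71 and 79 counts unconfined against 17, 6 and 2 confined. The levels were 62.3, 57.7 and 80.3 CPM against 49.9, 27.1 and 15.6 CPM, without overlap. In confined library 1 this peak ranked at percentile 91.5 of gene-end peaks, above its 84.7, 87.0 and 89.8 in the unconfined libraries, and in confined libraries 2 and 3 at 72.4 and 40.7.

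The Trp53 start peak (chromosome 11, 69579974 to 69580673) also covers an end of the neighbouring gene Wrap53, so its counts cannot be given to Trp53 alone. It had 9, 35 and 29 counts unconfined against 8, 1 and 2 confined, or 29.5, 28.5 and 29.5 CPM against 23.5, 4.52 and 15.6 CPM. At Mdm2, the peak just outside the start (chromosome 10, 117710544 to 117711243) had 45.9, 25.2 and 32.5 CPM unconfined and 29.3, 18.1 and 7.80 CPM confined, and here the groups overlapped. The Mdm2 peak 584 bp inside the gene (117709824 to 117710523) had 14.7 ± 5.29 CPM unconfined and 17.8 ± 13.3 CPM confined (SD, n = 3 each). Zmat3, a zinc finger RNA-binding protein induced by p53, had a gene-end peak (chromosome 3, 32365403 to 32366102) with 20.3 ± 2.30 CPM unconfined and 14.9 ± 7.93 CPM confined (SD, n = 3 each), and the groups overlapped.

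Atm and Gadd45b had no peak under the rule. The peak at the Atm start (chromosome 9, 53536594 to 53537293) is shared with Npat, whose end lay nearer, and counts as a peak of that gene. It had 25, 104 and 105 counts unconfined against 19, 6 and 2 confined (82.0, 84.6 and 107 CPM against 55.7, 27.1 and 15.6 CPM). The peak nearest to Gadd45b lay 12019 bp from it and was assigned to Lmnb2. Cdkn1a, the cell cycle inhibitor p21, and Bbc3, the death-inducing protein PUMA, had distal peaks only.

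Distal peaks of the same genes had no common direction in CPM. All confined libraries lay below all unconfined ones at 3 of the 20 distal peaks (7.30% of all linked distal peaks) and above them at 1 (20.4% of all). The 3 lower peaks belonged to Cdkn1a and, with 2 of them, to Bbc3, and the higher one to Gadd45g.

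**Figure D2:**
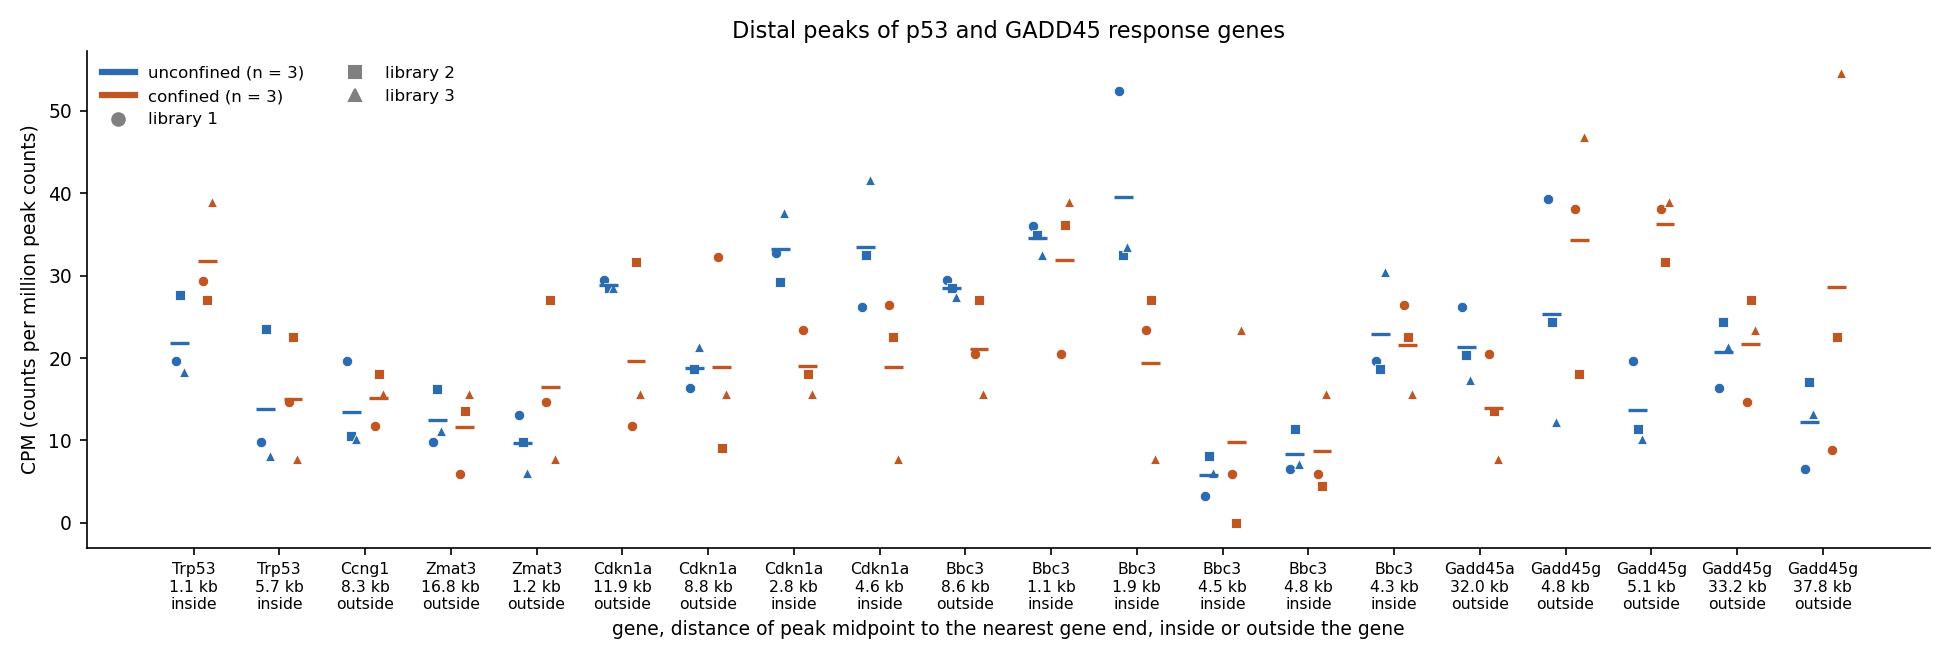
CPM of the 20 distal peaks in each of 3 unconfined (blue) and 3 confined (orange) libraries, with symbols for library 1, 2 or 3 and bars for group means. The Gadd45g peak 5.1 kb outside the gene is the one at which all confined libraries (31.6 to 39.0 CPM) lay above all unconfined ones (10.2 to 19.7 CPM).

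At Cdkn1a, the peak over the internal start (chromosome 17, 29093435 to 29094134, within the gene) had 10, 36 and 37 counts unconfined against 8, 4 and 2 confined. The levels were 32.8, 29.3 and 37.6 CPM against 23.5, 18.1 and 15.6 CPM, and the groups did not overlap. A Cdkn1a peak farther inside the gene (29095183 to 29095882) had 33.5 ± 7.76 CPM unconfined and 18.9 ± 9.83 CPM confined. The Cdkn1a peaks 8838 and 11880 bp upstream of the gene had 18.8 ± 2.47 and 28.8 ± 0.609 CPM unconfined and 19.0 ± 12.0 and 19.6 ± 10.5 CPM confined (SD, n = 3 each). Confined libraries differed at both, with 32.3, 9.03 and 15.6 CPM at the nearer and 11.7, 31.6 and 15.6 CPM at the farther.

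Bbc3 had 6 peaks, all within 8591 bp of its ends, and 2 of them cover RefSeq starts inside the gene. Of these, the one on chromosome 7 from 16309104 to 16309803 had 36.1, 35.0 and 32.5 CPM unconfined and 20.5, 36.1 and 39.0 CPM confined. The other Bbc3 start peak (16309902 to 16310601) held 52.5, 32.5 and 33.5 CPM against 23.5, 27.1 and 7.80 CPM, without overlap. The mean was lower in confined cells at both, and the groups separated at the second alone. The Bbc3 peak 8591 bp outside the gene (16299457 to 16300156) had 28.5 ± 1.04 CPM unconfined and 21.1 ± 5.77 CPM confined. The remaining 3 Bbc3 peaks, 2 of which overlap by 378 bp and can share reads, had group means between 5.84 and 23.0 CPM, and their groups overlapped.

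Gadd45g was flanked by 4 distal peaks, and confined means exceeded unconfined ones at each. Distal peaks as a whole also held more of all counts in confined (52.3% to 57.2%) than in unconfined libraries (43.8% to 47.1%). The peak 5112 bp past the end of the gene (chromosome 13, 51853238 to 51853937) had 6, 14 and 10 counts unconfined against 13, 7 and 5 confined. The levels were 19.7, 11.4 and 10.2 CPM against 38.1, 31.6 and 39.0 CPM, so the groups did not overlap. The Gadd45g peak 4778 bp before the gene (51841547 to 51842246) held 39.4, 24.4 and 12.2 CPM against 38.1, 18.1 and 46.8 CPM, with overlap. At 33218 and 37842 bp past the end, Gadd45g peaks had 20.7 ± 4.04 and 12.3 ± 5.32 CPM unconfined and 21.7 ± 6.38 and 28.7 ± 23.5 CPM confined (SD, n = 3 each), where confined library 3 alone reached 54.6 CPM at the latter.

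Trp53 had 2 distal peaks, both inside the gene. The one 1068 bp from the start (69581067 to 69581766) had 19.7, 27.7 and 18.3 CPM unconfined and 29.3, 27.1 and 39.0 CPM confined, the opposite order of means to the start peak. The other Trp53 peak (69585682 to 69586381) held 13.9 ± 8.47 and 15.0 ± 7.40 CPM. Distal peaks of Zmat3 (2), Ccng1 (1) and Gadd45a (1) had means of 9.66 to 21.3 CPM unconfined and 11.7 to 16.5 CPM confined, and their groups overlapped.

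Single peaks were tested with edgeR's quasi-likelihood test over the whole table. Here 7 of the 29 peaks passed the filter on low counts, which asks for about 31.0 CPM in at least 3 libraries. The fit scales each library to the tested peaks, whose part of all counts was 43.2% to 51.2% in unconfined and 23.6% to 34.8% in confined libraries. A log2 fold change (confined over unconfined) on that scale is relative to a median of -0.02 over all 9084 tested peaks. Scaled by total counts, as CPM are, that median was -0.68. So fitted values lie above those that CPM show, and both are given.

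Over all tested peaks 5.79% were called higher and 2.42% lower. Of the 7 peaks, 1 was called, the Gadd45g peak 5112 bp past the gene, which rose with a log2 fold change of 2.21 (SE 0.55, edgeR adjusted p = 0.00912). Scaled by total counts it was 1.55 (edgeR adjusted p = 0.00952). It entered through the 3 confined libraries alone, so a peak of that level had to differ to be tested. Of all tested distal peaks 10.6% were called higher and 1.15% lower, and here 1 of 4 was called. The call was kept in 6 of 12 alternative fits. It was lost without unconfined library 1, 2 or 3 (edgeR adjusted p = 0.0563, 0.0761 and 0.164), without confined library 2 (0.0695), with no filter (log2 fold change 1.35, 0.0656) and when the confined group was library 1 alone (log2 fold change 1.43). In that last fit the spread comes from the unconfined libraries and the lone confined library is assumed to vary like them, so its values are given here and elsewhere without a p-value. It was not tested without confined library 1 or under a filter on mean log2 CPM.

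None of the 3 tested gene-end peaks was called in the edgeR fit described above, or had an unadjusted edgeR p under 0.05 in it. DESeq2 and limma-voom called none of them either. Of all tested gene-end peaks, 3.77% were called lower and 1.08% higher. With total counts as the only scaling 25.2% of all tested peaks were called lower and 3.83% higher, and with no filter 4.27% were called lower. In these other edgeR fits the unadjusted edgeR p of the 3 gene-end peaks was under 0.05, at 0.00599 to 0.0294 with total counts and 0.00151 to 0.0168 with no filter. The Gadd45a start peak had a log2 fold change of -0.40 (SE 0.34, edgeR adjusted p = 0.488) and -1.17 with total counts (edgeR adjusted p = 0.0545). The Gadd45g start peak had -0.70 (SE 0.46, edgeR adjusted p = 0.350). It passed as lower with total counts (-1.35, edgeR adjusted p = 0.0293) and with no filter (-1.59, edgeR adjusted p = 0.0376). Where the filter applied, this peak entered through the unconfined libraries alone, so a peak of its confined level had to differ to be tested. The Ccng1 start peak had -0.26 (SE 0.34, edgeR adjusted p = 0.681) and -0.93 with total counts (edgeR adjusted p = 0.0782). For comparison, the peak shared by Atm and Npat had -0.61 (edgeR adjusted p = 0.257) and -1.30 with total counts (edgeR adjusted p = 0.0304). The Gadd45g peak before the gene had 1.21 (edgeR adjusted p = 0.132), and the Bbc3 start peaks 0.43 and -0.09 (edgeR adjusted p = 0.568 and 0.934). The first Bbc3 value turned to -0.23 with total counts. The second Bbc3 start peak also entered through the unconfined libraries alone. On simulated counts this fit called 26% of peaks changed 2-fold and 74% of those changed 4-fold, so a 2-fold change at a single peak was mostly not detectable. The simulated libraries all followed a common profile, unlike confined libraries 2 and 3.

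To gain counts, peaks were summed per gene, gene-end and distal apart, for all protein-coding genes, and 8 of 13 sums of these genes passed the filter. The scale changed as well, since the median over all tested sums was -0.03, and -0.13 with total counts. Ccng1, with 1 gene-end peak, had the same counts in each fit but -0.26 as a peak and -0.76 as a sum. A shift from a peak value to a sum value is therefore not due to added counts alone. In the sum fit 1 sum fell and 1 rose, at 2 members of the GADD45 family. The Gadd45a gene-end sum had 51, 116 and 116 counts unconfined against 27, 9 and 5 confined, or 127 ± 37.2 and 52.9 ± 22.8 CPM (SD, n = 3 each). It fell with a log2 fold change of -0.90 (SE 0.33, edgeR adjusted p = 0.0458). The Gadd45g distal sum had 25, 95 and 56 counts unconfined against 34, 22 and 21 confined, or 72.1 ± 13.3 and 121 ± 37.1 CPM. It rose with a log2 fold change of 0.88 (SE 0.31, edgeR adjusted p = 0.0351), and with the replicate number as a block the call was lost (0.90, edgeR adjusted p = 0.0616).

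**Figure D3:**
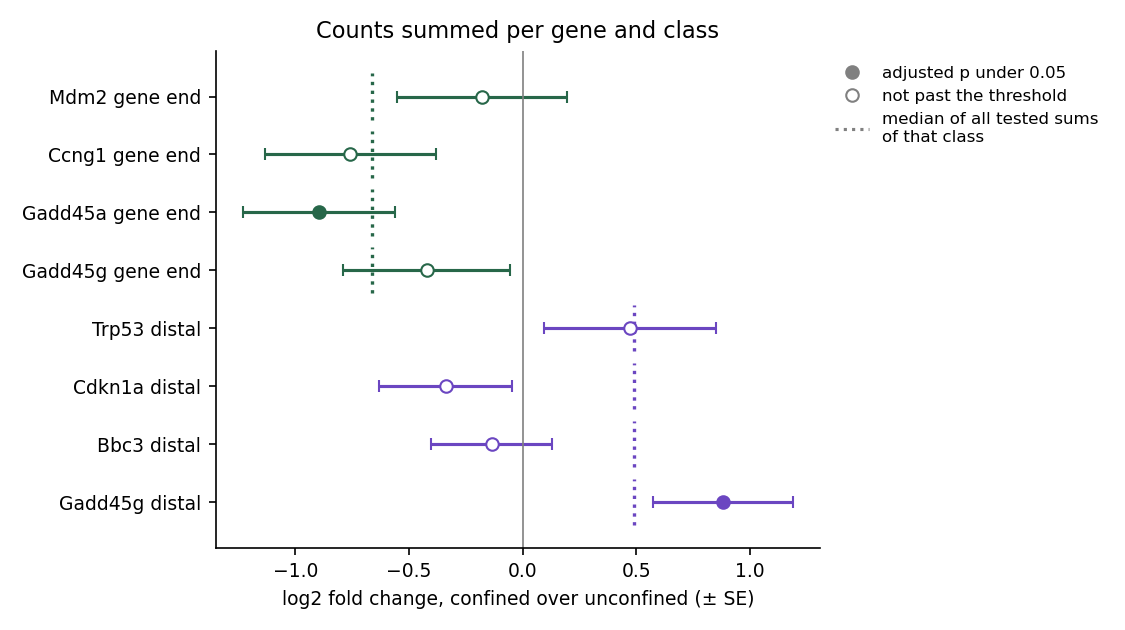
Log2 fold change (confined over unconfined, ± SE) of the 8 tested sums, gene-end in green and distal in purple. Filled points passed the threshold, and dotted lines are the medians of all tested sums of the class, -0.66 at gene ends and 0.49 distally. Gadd45a gene ends (-0.90) and Gadd45g distal peaks (0.88) passed.

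Calls of this kind were about as frequent over all genes. Of 4866 tested gene-end sums, 27.0% were called lower and 1.42% higher, and of these genes 1 of 4 was lower. Of 5620 tested distal sums, 23.9% were called higher and 2.67% lower, and of these genes 1 of 4 was higher. The median of all gene-end sums was -0.66 and that of all distal sums 0.49. The other 6 sums did not pass. The gene-end values were -0.76 for Ccng1 (edgeR adjusted p = 0.125), -0.42 for Gadd45g (0.378) and -0.18 for Mdm2 (0.723). The distal values were 0.47 for Trp53 (0.340), -0.34 for Cdkn1a (0.377) and -0.14 for Bbc3 (0.702). The Cdkn1a and Bbc3 sums include peaks over RefSeq starts inside these genes. The Bbc3 value turned to 0.011 with a gene-end distance of 2 kb and to 0.016 with a linking distance of 20 kb. The 2 kb setting takes both Bbc3 start peaks (1055 and 1853 bp from the gene end) out of the distal sum, and the 20 kb setting leaves the Bbc3 peaks in place. The Gadd45a call was kept in 7 of 16 alternatives and the Gadd45g call in 6 of 16. When the confined group was library 1 alone the log2 fold changes were -0.60 and 0.49. Without unconfined library 1 or 3, or confined library 2 or 3, both were lost, and without unconfined library 2 the Gadd45g call was. Without confined library 1, the Ccng1 gene-end sum also passed as lower (-1.41, edgeR adjusted p = 0.0266).

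A comparison within each gene needs no scaling between libraries. In the 5 genes with both kinds of peak, the part of the gene's linked counts that lay at its end had a lower mean in confined cells. For Gadd45g it was 46.8%, 43.5% and 50.4% unconfined against 37.0%, 21.4% and 12.5% confined. The 95% Clopper-Pearson intervals were 32.1% to 61.9%, 35.8% to 51.3% and 40.9% to 60.0% for unconfined libraries 1 to 3. Those for confined libraries 1 to 3 were 24.3% to 51.3%, 8.30% to 41.0% and 2.66% to 32.4%, and each overlapped at least 1 unconfined interval. For Trp53 it was 50%, 35.7% and 52.7% against 34.8%, 8.33% and 25.0%. The confined values rest on 8 of 23, 1 of 12 and 2 of 8 counts. Their intervals were 16.4% to 57.3%, 0.211% to 38.5% and 3.19% to 65.1%, and each overlapped that of unconfined library 1 (26.0% to 74.0%). The Trp53 gene-end peak is shared with Wrap53, so this is not a share within Trp53 alone. At Gadd45g and Trp53 the groups did not overlap, as at 34.1% of the 5791 genes with both kinds, where the confined share was below. At 3.57% of those genes it was above. The means were 83.1% and 63.7% for Ccng1, 48.2% and 34.4% for Zmat3, and 85.3% and 79.2% for Gadd45a, and these groups overlapped. Intervals cover counting error only.

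**Figure D4:**
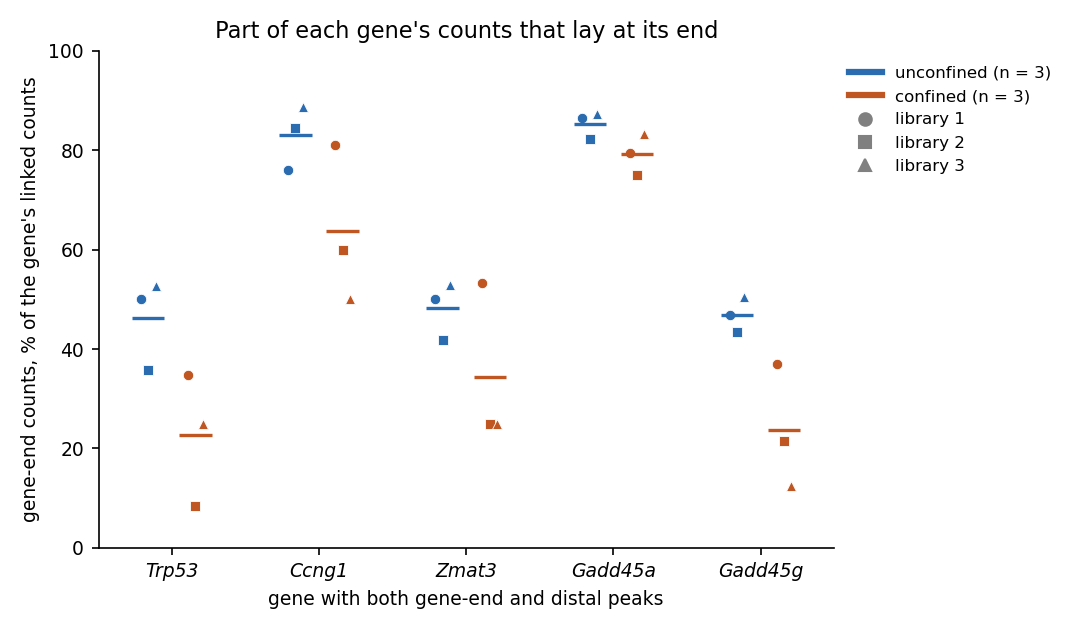
Gene-end counts as a percentage of all counts linked to the gene, for the 5 genes with both gene-end and distal peaks, in 3 unconfined (blue) and 3 confined (orange) libraries. Symbols mark libraries and bars group means. At Trp53 and Gadd45g all confined libraries lay below all unconfined ones.

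Set against the same class in the same library, the 9 gene-end peaks took 0.0866% ± 0.0116 of gene-end counts unconfined and 0.0687% ± 0.0192 confined (SD, n = 3 each). The values were 0.0996%, 0.0771% and 0.0831% against 0.0909%, 0.0566% and 0.0585%, so the groups overlapped and confined library 1 lay among the unconfined ones. These peaks are 0.0798% of all gene-end peaks. The 20 distal peaks took 0.0923% ± 0.00319 of distal counts unconfined and 0.0748% ± 0.000471 confined, without overlap, and are 0.0854% of all distal peaks. Among the 20 are the peaks over RefSeq starts inside Cdkn1a and Bbc3, which are start peaks although they count as distal here. Their part in the difference was not tested. The distal class as a whole took 43.8% to 47.1% of all counts unconfined and 52.3% to 57.2% confined. With all peaks as the denominator the difference of -0.0175 percentage points became -0.000466, and over the peaks that passed the filter it turned to 0.0401. With so few counts, intervals of single libraries did overlap, from 0.0833% to 0.0990% in unconfined library 2 and from 0.0564% to 0.0975% in confined library 3.

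Other genes of the pathway were read from 6 lists with 72 genes, of which 66 had a peak. Of their 189 peaks 55 were tested, and 1 rose and 1 fell (5.79% and 2.42% of all tested peaks). Of their 38 tested gene-end sums none rose and 6 fell (background 1.42% and 27.0%), with a median log2 fold change of -0.52 against -0.66 over all genes. Of their 25 distal sums 7 rose and 1 fell (background 23.9% and 2.67%), with a median of 0.59 against 0.49. The 6 gene-end sums that fell were those of Btg2, an antiproliferative p53 target (-1.72), the checkpoint kinase Chek2 (-1.48), the damage mediator Mdc1 (-1.38), Rrm2b, a ribonucleotide reductase subunit (-1.24), Rpl11, a ribosomal protein that binds Mdm2 (-1.19), and Ddb2, of nucleotide excision repair (-1.07). Their edgeR adjusted p-values ran from 0.00409 to 0.0465.

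Btg2 was also the gene whose distal sum fell, from 267 ± 45.2 to 70.6 ± 26.0 CPM (SD, n = 3 each, log2 fold change -1.65, SE 0.26, edgeR adjusted p = 0.000534). Its peak 1562 bp from the gene end had 49, 146 and 162 counts unconfined against 17, 2 and 2 confined and fell with a log2 fold change of -1.63 (SE 0.41, edgeR adjusted p = 0.00950). Distal sums rose at Rpl5 (1.20), the death receptor gene Tnfrsf10b (20.3 ± 6.24 CPM unconfined and 43.8 ± 3.07 CPM confined), the p53 kinase gene Hipk2 (1.04), Parp1 (0.92), Map3k4, the gene of the GADD45 partner MTK1 (0.88), the BH3-only gene Bcl2l11 (0.88) and Fancc (0.84), with edgeR adjusted p-values from 0.00409 to 0.0479. The single peak that was called higher lay near Hipk2 (1.65, edgeR adjusted p = 0.0358). This peak and the Tnfrsf10b sum reached the filter through the confined libraries alone, so they had to be higher there to be tested. In the other direction, the gene-end sums of Rpl11 (9, 4 and 2 counts confined) and Btg2 (10, 3 and 0) reached it through the unconfined libraries alone. Sums of that confined level had to be lower there to be tested. With no filter the Rpl11 sum had -1.43 (edgeR adjusted p = 0.0235) and the Btg2 gene-end sum -1.98 (edgeR adjusted p = 0.00343). With no filter the Hipk2 peak had 0.75 (edgeR adjusted p = 0.291) and the Tnfrsf10b sum 0.90 (edgeR adjusted p = 0.118). Blocking on the replicate number ended the calls of Rpl11, Ddb2, Parp1 and Map3k4 (edgeR adjusted p = 0.0780, 0.0788, 0.130 and 0.0862). Of these 16 pathway calls (2 peaks and 14 sums), 4 were kept without confined library 2, 9 without confined library 3 and 13 without confined library 1. Without unconfined library 1, 2 or 3 the number kept was 8, 11 or 5. With no filter 10 of 16 were kept, and the calls lost were the Hipk2 peak and the distal sums of Parp1, Bcl2l11, Tnfrsf10b, Fancc and Map3k4. With total counts 12 of 16 were kept, with DESeq2 10 of 14 and with limma-voom 11 of 16. When the confined group was library 1 alone, the distal sum of Btg2 had a log2 fold change of -1.41 and the gene-end sum of Chek2 -1.28.

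The lists hold gene-end and distal sums in different numbers, so the classes are given apart. Gene-end sums fell at 1 of 2 p53 regulators, 2 of 10 damage kinases and their partners, 1 of 9 targets of arrest and stress control, 2 of 5 repair targets, and at none of 7 death targets and 5 MAP kinases, against 27.0% of all gene-end sums. Distal sums rose at 2 of 5 p53 regulators, 1 of 4 damage kinases and their partners, 2 of 4 death targets, 1 of 3 repair targets, 1 of 5 MAP kinases and at none of 4 arrest targets, against 23.9% of all distal sums. With so few sums per list, no list can be set apart from its background.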

How the data were processed

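ATAC-seq was performed on 3 unconfined and 3 confined LT-HSC samples. The authors deposited counts per peak, assumed here to be raw, and peak coordinates (start and end, no other score). The tools named per the submitters' processing notes are featureCounts, SAMtools 1.14 and R 4.2.0, with the mm10 build. What each tool did is not given in the sources used here, nor are the aligner, the peak caller, duplicate removal or any shift for the transposase. The members and gene lists were chosen with earlier results of these data known.

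Peaks were linked to the nearest protein-coding gene end of the RefSeq table of GRCm38.p6. All 72 pathway genes matched it by symbol or synonym. Counts were fitted in R 4.3.3 by edgeR 4.0.16's quasi-likelihood test (TMM factors after filterByExpr, group only, two-sided, Benjamini-Hochberg over all tested features, threshold 0.05). SE is the log2 fold change divided by the root of F. The sum fit tested 10486 sums. On simulated counts with known changes it called 33% of 2-fold and 89% of 4-fold changes and 5 of 10286 unchanged sums. The peak fit called 5 of 8884 unchanged peaks. DESeq2 1.42.0 and limma-voom (limma 3.58.1) were alternatives. Intervals are Clopper-Pearson (SciPy 1.17.1).

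Peaks named are all gene-end peaks, tested distal peaks, and the untested distal peak with most counts per gene, with further peaks given as values. Pathway genes are named where a peak or sum passed.

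The pairing comes from the labels, where samples with the same number also have the same experimental batch. Deviations from group means correlated at r = -0.00877, 0.0151 and -0.0669 within pairs 1 to 3, and between -0.127 and 0.138 for other combinations. Libraries of a group differed by more than sampling noise (chi-square per degree of freedom 1.25 to 1.86). The labels do not say whether each sample came from separate animals, so p-values measure the spread between these samples.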

Additional observations from a re-analysis of the deposited data

How the results depend on the processing

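Depth limits single peaks: most values in confined libraries 2 and 3 rest on few counts, and fits with 1 library fewer tested other sets of peaks. The 1 called peak among those of these genes became 2 with total counts as the only scaling (1 higher, 1 lower) and with limma-voom (2 higher). It became 0 with a filter on mean log2 CPM and with confined library 1 alone. With 1 library left out the number was 0 to 1. The 2 called sums became 1 with total counts, with no filter, with the filter on mean log2 CPM, with limma-voom and with a linking distance of 20 kb, and 0 with DESeq2 and with confined library 1 alone. With the replicate block 1 peak was called, the same Gadd45g peak, and 1 sum, the Gadd45a gene-end sum. With 1 library left out, 0 to 3 sums were called. The block changed no other call of a peak or sum of these genes.

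The difference in the share of gene-end counts, -0.0179 percentage points, was 0.00428 with confined library 1 alone. That of distal counts, -0.0175 points, was -0.000466 with all peaks as denominator, -0.0209 with a linking distance of 20 kb and 0.0401 over filtered peaks, where 4 of the 20 peaks are left.

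Values that changed sign were those of the first Bbc3 start peak (-0.23 with total counts, -0.41 with no filter, -0.060 without unconfined library 1, -0.10 without confined library 2, with a highest value of 0.91 when 1 library was left out, -0.94 with confined library 1 alone), the Bbc3 distal sum (0.011 with a gene-end distance of 2 kb, 0.016 with a linking distance of 20 kb), the Mdm2 gene-end sum (0.034 without confined library 2, the range over left-out libraries being -0.57 to 0.034) and the Bcl2l11 distal sum (-0.024 with confined library 1 alone). The cause was not tested. With confined library 1 alone the spread comes from the unconfined libraries. For genes outside the 10, the alternatives were chosen after seeing the data.

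Over the whole table, the peak fit called 526 peaks higher and 220 lower. This became 348 and 2286 with total counts, 627 and 1821 with no filter, 171 and 71 with the filter on mean log2 CPM, 448 and 75 with DESeq2, 783 and 221 with limma-voom, 476 and 74 with the replicate block, and 3 and 7 with confined library 1 alone. With 1 library left out, 250 to 1696 were higher and 76 to 788 lower. The sum fit called 1414 sums higher and 1463 lower. This became 1027 and 1704 with total counts, 722 and 2001 with no filter, 771 and 747 with DESeq2, 1371 and 444 with limma-voom, 1185 and 940 with a linking distance of 20 kb, and 47 and 236 with confined library 1 alone. With 1 library left out, 145 to 2140 were higher and 409 to 2262 lower.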
